A study of Mus musculus with 6 samples.

Results

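Type 1 conventional dendritic cells (cDC1) of the mouse liver were picked out of single-cell RNA counts by a rule on marker transcripts, which found 1196 of the 66935 kept cell barcodes (1.79%). A barcode was kept if it held 300 genes or more and if mitochondrial transcripts made up less than 25% of its UMIs, where a UMI (unique molecular identifier) stands for 1 captured transcript. A member held at least 2 of the 5 genes Xcr1, Clec9a, Tlr3, Itgae and Snx22, with Xcr1 or Clec9a among them, and no UMI of Cd3e, Cd79a or Siglech, genes of T cells, B cells and plasmacytoid dendritic cells. It held fewer than 3 of Ccr7, Fscn1, Ccl22, Il4i1 and Cacnb3, genes of mature migratory dendritic cells, and fewer than 2 of Clec4f, Vsig4 and Stab2, genes of Kupffer and sinusoidal endothelial cells. Of the kept barcodes 6104 held Xcr1 or Clec9a and 2031 met the positive condition, of which 660 had too many Kupffer or endothelial genes. The members were chosen by the values of these 16 genes, which are given as a description, with no test.

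The 6 libraries came from whole mouse livers, with 2 libraries for control, 2 for pre-metastatic and 2 for macro-metastatic livers. The pre-metastatic and macro-metastatic libraries carry the label of an orthotopic colorectal cancer model, and the control libraries have the genotype label ctrl. CT26-GFP, a mouse colon carcinoma line with green fluorescent protein, is named for all 6 libraries, the controls included. The labels used here give no mouse strain, age or time after tumour implantation, and they do not tie the replicates to separate animals. All p-values here therefore rest on the spread between 2 samples a group, which may be technical. Livers were dissociated with collagenase II, erythrocytes were lysed and dead cells were depleted with beads, and cells were captured on the BD Rhapsody system, which adds a cell barcode and a UMI to each transcript.

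cDC1 depend on the transcription factors Irf8 and Batf3 and on the growth factor receptor Flt3. They take up dead cells, sense them through Clec9a, a receptor for exposed actin, and move exogenous antigen onto MHC class I for CD8+ T cells. Xcr1 is the receptor for the chemokine Xcl1 made by NK and CD8+ T cells, and Tlr3 senses double-stranded RNA. After activation they raise costimulatory molecules through NF-kB, gain Ccr7 and leave for lymph nodes.

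The number of positive markers was exactly 2 in 386 members, 3 in 343, 4 in 430 and 5 in 37. Just inside the rule, the members with 2 markers had 619 CPM of Irf8 (UMIs scaled to a common total) and 902 CPM of Naaa, a lysosomal amidase typical of cDC1. Just outside it, the 1763 barcodes with a single marker that met the other conditions had 172 CPM of Irf8 and 169.8 CPM of Naaa. Cd209a, a gene of type 2 conventional dendritic cells (cDC2), stood at 95.8 CPM in the members with 2 markers and at 220.0 CPM in the barcodes with a single marker.

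Genes the rule did not use were set against other dendritic cell classes. Pooled over the 6 libraries, Irf8 had 1245 CPM in cDC1, against 59.2 CPM in the 541 cDC2 and 234 CPM in the 3278 B cells. Naaa had 2712 CPM in cDC1, against 400.3 CPM in cDC2. Wdfy4, which cDC1 need for cross-presentation, had 1064 CPM in cDC1, against 174 CPM in cDC2. Cd209a, which helped to define cDC2 here, had 30.5 CPM in cDC1, against 1959 CPM in cDC2. Irf8, Naaa and Wdfy4, which defined none of these classes, thus lay on the side of the cDC1 label, and the level of Cd209a follows in part from the cDC2 rule.

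Transcripts of liver sinusoidal endothelium were the exception. Of the 1196 members, 256 (21.4%) held UMIs of 4 or 5 of the endothelial genes Stab2, Clec4g, Ptprb, Kdr and Egfl7. They were 47 and 54 members in control (51.1% and 38.6%), 29 and 80 in pre-metastatic (10.1% and 21.6%) and 26 and 20 in macro-metastatic libraries (21.8% and 10.8%). Among the other 940 members, 85.5% to 97.7% per library held at least 5 of Irf8, Cadm1, Wdfy4, Naaa, Ppt1 and Cd24a, which the rule did not use. Both macro-metastatic libraries, at 92.5% and 85.5%, stood below all others. Among the 256 the range was 3.85% to 38.8%. Of the rule genes, Clec9a was held by 47 of the 47 such barcodes in control replicate 1, Tlr3 by 44, and Xcr1 and Itgae by 4 each. Endothelial cells of that library held Clec9a in 10.1% and Tlr3 in 10.4% of barcodes. In pre-metastatic replicate 2, by contrast, 34 of the 80 held Xcr1. Naaa was detected in 92.2% to 100% of the 940 and in 7.69% to 47.5% of the 256 per library, beside 4.98% to 27.9% of endothelial cells and 5.82% to 10.5% of B cells. Median depths were 5542 to 10442 UMIs in the 940 and 4176.5 to 8743 UMIs in the 256. Irf8 was detected in 27.8% to 80.8% and Ppt1 in 46.3% to 80.0% of the 256 per library, beside 16.7% to 60.7% and 38.9% to 58.3% of endothelial cells. Most of the 256 barcodes thus held fewer than 5 of these 6 genes, and results below are also given for the 940, called endothelial-low members. This split was chosen after the data were seen.

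**Figure D1:**
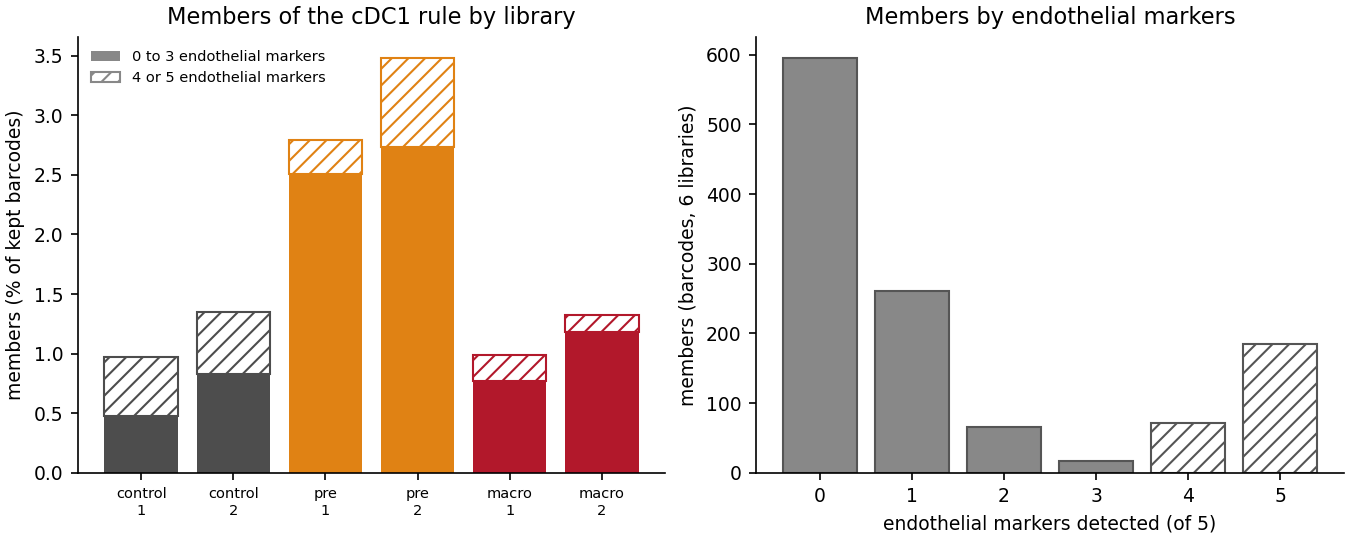
Members of the cDC1 rule in percent of kept barcodes in each library (left; solid, 0 to 3 endothelial genes; hatched, 4 or 5) and the number of members by how many of 5 endothelial genes they held (right). Pre-metastatic libraries stand highest at 2.79% and 3.48%, and the hatched share is largest in the control libraries.

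The plot of members by library shows the barcodes with endothelial genes as the larger portion of control replicate 1 (47 of 92 members). Library totals ran between 41914149 and 90819751 UMIs and the sums over members between 597294 and 2279343. Median depth was 6078 and 5550.5 UMIs in control members, 6611 and 5768 UMIs in pre-metastatic members and 10272 and 9972 UMIs in macro-metastatic members, which were thus the deepest. No member barcode was a member in another library, and 67 occurred as a kept barcode of another library. A high doublet score was found in 75 members. Over the list of 12 endothelial genes the summed level was 14303 and 10479 CPM in control, 3547 and 6437 CPM in pre-metastatic and 5601 and 3244 CPM in macro-metastatic members. In endothelial-low members it lay between 607 and 923 CPM in all 6 libraries.

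cDC1 lay at a higher share of captured cells in both pre-metastatic libraries than in any control library. Over all members, the 256 with endothelial genes included, the mean share was the same in macro-metastatic and control livers. There were 92 and 140 members from control livers, 288 and 371 from pre-metastatic livers and 119 and 186 from macro-metastatic livers. Their share of kept barcodes averaged 1.16% ± 0.269 in control livers, 3.14% ± 0.491 in pre-metastatic livers and 1.16% ± 0.238 in livers with macro-metastases (SD, n = 2 each). The 2 pre-metastatic libraries, at 2.79% (Wilson 95% interval 2.49 to 3.13) and 3.48% (3.15 to 3.85), did not overlap with the control libraries, at 0.969% (0.791 to 1.19) and 1.35% (1.14 to 1.59). The intervals cover counting error only. With all members the difference missed the threshold in edgeR's quasi-likelihood test over 13 cell classes, at a log2 fold change of 1.43 (SE 0.63, adjusted p = 0.0758). It passed with endothelial-low members, which made up 2.62% ± 0.158 of pre-metastatic and 0.652% ± 0.251 of control barcodes, at 2.00 (SE 0.66, adjusted p = 0.0130), and with at least 3 positive markers, at 2.19 (adjusted p = 0.00633). For endothelial-low members the value was 1.66 (adjusted p = 0.219) when control replicate 1 was left out and 2.46 (0.0581) when control replicate 2 was.

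The difference between macro-metastatic and control livers did not exceed the spread between libraries, with a log2 fold change of -0.00 (SE 0.63, adjusted p = 0.994) for all members and 0.58 (adjusted p = 0.478) for endothelial-low members. Endothelial-low members made up 0.977% ± 0.290 of macro-metastatic barcodes, against 0.652% ± 0.251 of control barcodes. Against pre-metastatic livers the log2 fold change was -1.44, short of the threshold (SE 0.63, adjusted p = 0.0577). Of all conventional and mature dendritic cells, cDC1 were 66.7% and 74.9% of those from control livers, 63.0% and 63.7% from pre-metastatic livers and 58.0% and 62.0% from macro-metastatic livers. In all members these shares did not overlap between the groups and were highest in control libraries. In endothelial-low members they overlapped, with 49.5% and 64.7% from control livers, 60.5% and 58.0% from pre-metastatic livers and 52.0% and 59.3% from macro-metastatic livers, and with at least 3 positive markers the control libraries, at 43.9% and 59.8%, held both the lowest and the highest share. The shares were not tested. Shares describe captured barcodes after digestion and dead-cell removal, and a change in other cell types moves them too.

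The rule genes themselves moved unevenly. In all members Xcr1 had 494 and 695 CPM in control, 941 and 899 CPM in pre-metastatic and 432 and 544 CPM in macro-metastatic libraries, and Clec9a had 621 and 939 CPM in control, 1125 and 1196 CPM in pre-metastatic and 588 and 785 CPM in macro-metastatic libraries. In endothelial-low members Xcr1 had 902 and 982 CPM in control, 1029.6 and 1087 CPM in pre-metastatic and 524 and 590.2 CPM in macro-metastatic libraries, and Clec9a had 1028 and 1253 CPM in control, 1216 and 1411 CPM in pre-metastatic and 698 and 827 CPM in macro-metastatic libraries. Both were thus lowest in the macro-metastatic libraries of endothelial-low members. Tlr3 had 235 and 252 CPM in control, 209 and 211 CPM in pre-metastatic and 92.6 and 87.6 CPM in macro-metastatic libraries in all members and 264 and 291 CPM in control, 215 and 232 CPM in pre-metastatic and 82.9 and 79.2 CPM in macro-metastatic libraries in endothelial-low members, lowest in the macro-metastatic libraries of both sets. Itgae, the integrin chain CD103, ran the other way with 44.0 and 109 CPM in control, 309 and 255 CPM in pre-metastatic and 470.3 and 389 CPM in macro-metastatic libraries in all members and 72.7 and 139 CPM in control, 339 and 303 CPM in pre-metastatic and 568 and 413 CPM in macro-metastatic libraries in endothelial-low members. Ccr7, the receptor that guides mature dendritic cells to lymph nodes, had 1.63 and 3.49 CPM in control, 0 and 2.63 CPM in pre-metastatic and 55.2 and 46.3 CPM in macro-metastatic libraries. Members with 2 of the 5 mature genes, the most the rule allows, numbered 0 and 2 in control libraries, 0 and 3 in pre-metastatic libraries and 14 and 17 in macro-metastatic libraries. These numbers were not adjusted for depth, and macro-metastatic members were the deepest.

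Several identity genes of cDC1 were lower in macro-metastatic than in control livers once the barcodes with endothelial genes were left out, while the adhesion gene Cadm1, the cross-presentation gene Wdfy4 and Naaa did not pass the test. Of 23 identity genes tested in endothelial-low members, 1 rose and 8 fell, beside 9.18% of all 8623 genes that rose and 3.51% that fell. Their median log2 fold change was -0.40, against -0.00 for all genes. In all members 3 rose and 2 fell, beside 9.42% and 4.80% of 9622 genes, with a median of 0.07. The fold changes given below as log2FC are edgeR's log2 fold changes.

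Irf8, the lineage factor, had 1897 and 1735 CPM in control, 1944 and 1558 CPM in pre-metastatic and 942 and 1052 CPM in macro-metastatic libraries in endothelial-low members. Both macro-metastatic libraries lay below all others, and edgeR's log2 fold change against control was -0.86 (SE 0.16, adjusted p = 0.00459). In all members, where the control libraries have the largest shares of endothelial barcodes, it was -0.32 (SE 0.20, adjusted p = 0.32), and with at least 3 positive markers -0.71 (adjusted p = 0.036). Bcl6, a repressor that cDC1 share with germinal centre B cells, had 248 and 312 CPM in control, 351 and 275 CPM in pre-metastatic and 132 and 125 CPM in macro-metastatic libraries in endothelial-low members. Its log2FC of macro-metastatic over control livers was -1.14 (SE 0.20, adjusted p = 0.00351), and B cells of the same livers had -0.23 (adjusted p = 0.589). Tlr11, a sensor of protozoan profilin, had 112 and 167 CPM in macro-metastatic libraries, against 314 and 246 CPM in control libraries (log2FC -0.97, adjusted p = 0.0144). Gcsam, whose human counterpart is a germinal centre signalling adaptor, had 105 and 119.5 CPM in macro-metastatic libraries, against 192 and 208 CPM in control libraries (log2FC -0.83, adjusted p = 0.017). For Tlr11 and Gcsam the groups did not overlap, with macro-metastatic libraries lower.

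Itgax, the integrin chain CD11c, had 446 and 421 CPM in control, 268 and 268 CPM in pre-metastatic and 258 and 274 CPM in macro-metastatic libraries in endothelial-low members. The control libraries stood above the other 4, and the fold change of macro-metastatic over control livers was -0.70 (SE 0.16, adjusted p = 0.0143). Zbtb46, a factor of conventional dendritic cells, had 134 and 123 CPM in control, 122 and 95.7 CPM in pre-metastatic and 77.2 and 78.8 CPM in macro-metastatic libraries in all members and passed there (log2FC -0.71, SE 0.20, adjusted p = 0.047) and in endothelial-low members (log2FC -0.75, adjusted p = 0.0435). Cd207, the lectin langerin, changed by -0.62 (SE 0.17, adjusted p = 0.0345) in endothelial-low members, and Cd8a had 2.05 and 8.88 CPM in macro-metastatic libraries, against 36.4 and 21.7 CPM in control libraries there (log2FC -2.18, adjusted p = 0.0339). Nfil3, a factor upstream of cDC1 development, was the identity gene that rose in both sets. It had 40.7 and 69.7 CPM in control, 131 and 99.2 CPM in pre-metastatic and 176 and 234 CPM in macro-metastatic libraries, and its fold change was 1.87 (SE 0.29, adjusted p = 0.00504) in all and 1.39 (SE 0.24, adjusted p = 0.00324) in endothelial-low members, beside 1.83 in B cells.

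Cadm1 had 853 and 1035 CPM in control, 951 and 1095 CPM in pre-metastatic and 620.1 and 911 CPM in macro-metastatic libraries in endothelial-low members, with macro-metastatic and control values that overlapped (log2FC -0.30, SE 0.20, adjusted p = 0.349). Wdfy4 had 1203 and 1338 CPM in control, 1383 and 1441 CPM in pre-metastatic and 1083 and 1201 CPM in macro-metastatic libraries, and its macro-metastatic and control values almost touched (log2FC -0.16, SE 0.15, adjusted p = 0.537). Naaa lay lower in macro-metastatic than in control libraries, at 2144 and 2561 CPM against 3248 and 3225 CPM, but missed the threshold (log2FC -0.46, SE 0.15, adjusted p = 0.0629). Batf3, the factor cDC1 cannot form without, was near the detection limit with 0 and 5.81 CPM in control, 9.72 and 10.1 CPM in pre-metastatic and 14.6 and 18.1 CPM in macro-metastatic libraries in all members and did not pass (log2FC 2.28, SE 0.71, adjusted p = 0.0616). Flt3, the receptor of the cDC1 growth factor, had 119 and 243 CPM in control, 317 and 288 CPM in pre-metastatic and 227 and 330.4 CPM in macro-metastatic libraries and did not pass either (log2FC 0.61, SE 0.31, adjusted p = 0.215).

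**Figure D2:**
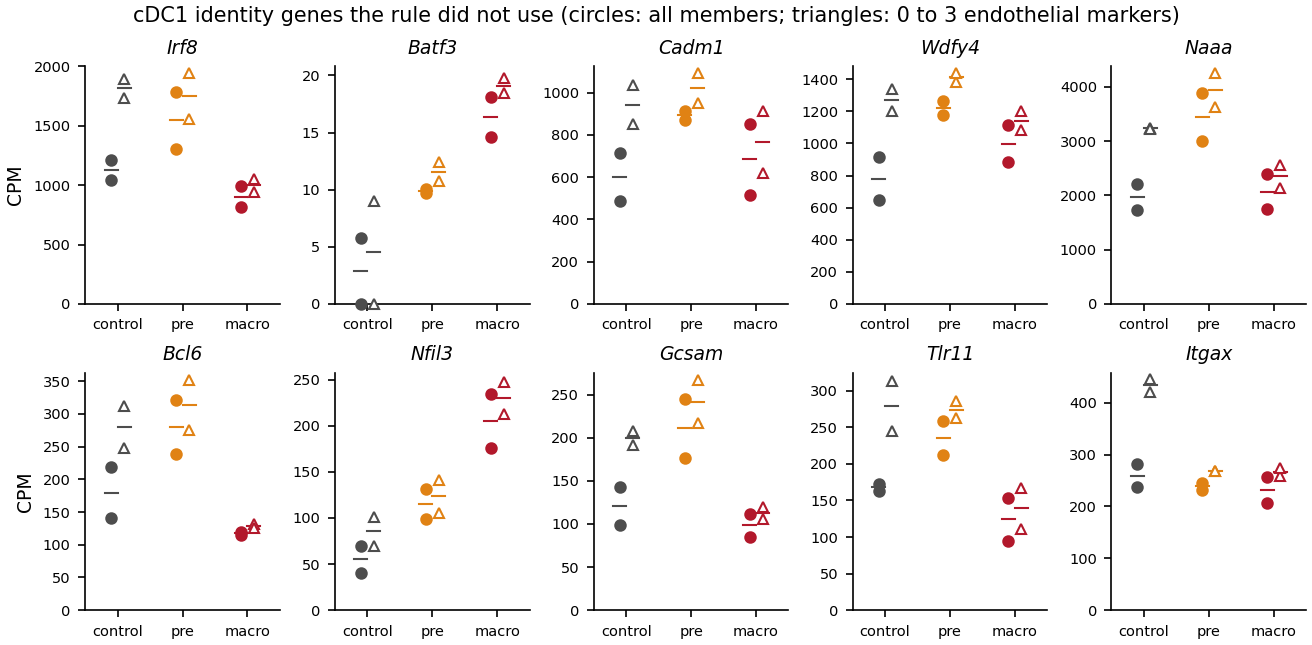
CPM of 10 identity genes in each library and group (circles, all members; triangles, endothelial-low members; lines, group means; linear scale, each panel its own). In the triangles Irf8, Bcl6, Gcsam and Tlr11 lie lower in macro-metastatic than in control and pre-metastatic livers, and Nfil3 lies higher.

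The plot of identity genes by group shows how far the endothelial barcodes pull the control circles below the control triangles. For Irf8 the control libraries had 1046 and 1207 CPM in all members and 1897 and 1735 CPM in endothelial-low members, whereas the macro-metastatic values differed less, at 815 and 992 CPM and 942 and 1052 CPM.

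Against control livers, cDC1 of macro-metastatic livers carried more transcript of NF-kB pathway genes, of costimulatory genes and of the shared receptor chain for GM-CSF. They also carried more of MHC class II loading genes, metallothioneins and glycolytic enzymes. Not all of this was particular to cDC1. Nfkbia, Csf2rb, H2-DMa and Mt1 rose in B cells too, with no called difference, whereas Relb, Cd40 and Cd83 rose more in cDC1, as given below. Over all members 906 genes rose and 462 fell of 9622 tested, and in endothelial-low members 792 rose and 303 fell of 8623 (edgeR, adjusted p under 0.05). With at least 3 positive markers 7.20% of 8386 genes rose and 2.00% fell. Without TMM scaling, which shifts every gene of a library by the same factor, 733 rose and 756 fell. With all libraries 1368 genes were called, against 623 without macro-metastatic replicate 2, 210 without control replicate 1 and 488 without control replicate 2. In endothelial-low members 1095 were called, against 325 and 364 after leaving out control replicates 1 and 2. Leaving the rule genes aside, 514 genes rose and 71 fell in each of 3 selections, all members, endothelial-low members and members with at least 3 positive markers. Of 150 calls of named genes over the comparisons, 81 lost the threshold without control replicate 1 and 64 without control replicate 2. The 514 and 71 genes were 57.0% of the 901 rising and 15.4% of the 460 falling genes of all members.

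Most genes of the NF-kB pathway and its feedback rose. Of 18 tested, 15 rose and none fell in all members (9.42% of all genes rose), with a median log2 fold change of 2.02. In endothelial-low members 13 of 18 rose, with a median of 1.62. Nfkbia, the inhibitor that holds NF-kB in the cytoplasm, had 435 and 316 CPM in control, 408 and 617 CPM in pre-metastatic and 1818 and 1565 CPM in macro-metastatic libraries. Macro-metastatic libraries stood above all others, and the fold change over control was 2.18 (SE 0.25, adjusted p = 0.00134). Tnfaip3, the deubiquitinase A20 that shuts the pathway off, had 213 and 128 CPM in control, 193 and 351 CPM in pre-metastatic and 781 and 638 CPM in macro-metastatic libraries (log2FC 2.07, SE 0.33, adjusted p = 0.00565). Relb, the subunit of the alternative NF-kB pathway, had 13 and 19.8 CPM in control, 28.7 and 31.6 CPM in pre-metastatic and 131 and 100.1 CPM in macro-metastatic libraries (log2FC 2.77, SE 0.29, adjusted p = 0.000952). Rela, the canonical subunit, had 6.52 and 19.8 CPM in control, 12.6 and 8.78 CPM in pre-metastatic and 61.7 and 83.9 CPM in macro-metastatic libraries (log2FC 2.38, SE 0.42, adjusted p = 0.00814), whereas Nfkb1, the p50 precursor, was level in the 3 groups with 186 and 243 CPM in control, 217 and 223 CPM in pre-metastatic and 209.6 and 213 CPM in macro-metastatic libraries (log2FC -0.02, SE 0.19, adjusted p = 0.946). All 4 genes that passed also passed in endothelial-low members.

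Promoters of this list are shown because its members moved together. The motif GGG, 3 bases of any kind, then TTCC, a core of kB sites, was searched on both strands in the 250 bases upstream of each start in the RefSeq table of build GRCm38.p6. It lay in 1244 of 27025 promoters (4.60%) and in 5 of the 15 list members with an entry (33.3%), namely Nfkbia, Nfkb2, Rel, Tnfaip3 and Tnip1. A match is a description of letters, not of binding. Nfkb1, Nfkbiz and Relb had no entry. The stretches of Nfkbia, chr12:55492648-55492897 on the minus strand, and Tnfaip3, chr10:19015411-19015660 on the minus strand, follow 5′ to 3′ with the match in capitals, and the match begins 29 and 12 bases before the start.
Nfkbia: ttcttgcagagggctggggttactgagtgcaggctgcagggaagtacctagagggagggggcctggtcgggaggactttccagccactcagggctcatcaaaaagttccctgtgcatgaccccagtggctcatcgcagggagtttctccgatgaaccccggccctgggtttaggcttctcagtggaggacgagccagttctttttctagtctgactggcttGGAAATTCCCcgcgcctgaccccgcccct
Tnfaip3: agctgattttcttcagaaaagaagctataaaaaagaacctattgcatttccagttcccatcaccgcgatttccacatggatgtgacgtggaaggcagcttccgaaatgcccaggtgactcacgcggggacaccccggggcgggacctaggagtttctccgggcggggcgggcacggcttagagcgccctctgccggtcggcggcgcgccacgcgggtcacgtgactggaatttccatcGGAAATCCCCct

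Costimulatory genes rose as well, though the count was smaller. Of 18 maturation genes tested, 8 rose and none fell in all members, beside 9.42% of all genes, and 9 of 17 rose in endothelial-low members. Traf1, Relb, Cd83, Tnfsf9, Samsn1, Birc3, Cd80 and Cd40 rose in all 3 selections of members. Traf1, Relb and Birc3 are also in the NF-kB list, and Relb is in the growth factor list as well, so these counts share genes. Cd40, the receptor through which helper T cells license dendritic cells, had 3.26 and 11.6 CPM in control, 4.86 and 3.51 CPM in pre-metastatic and 30.9 and 43.2 CPM in macro-metastatic libraries, and its fold change was 2.21 (SE 0.49, adjusted p = 0.019). Cd80, a ligand of Cd28, had 11.4 and 33.7 CPM in control, 23.8 and 47.8 CPM in pre-metastatic and 102 and 99.5 CPM in macro-metastatic libraries (log2FC 2.08, SE 0.44, adjusted p = 0.0171). Cd83, a maturation marker that stabilises MHC class II at the surface, had 305 and 455 CPM in control, 426 and 589 CPM in pre-metastatic and 1075 and 1141 CPM in macro-metastatic libraries (log2FC 1.54, SE 0.24, adjusted p = 0.00504). For each of the 3 genes both macro-metastatic libraries lay above the 4 others.

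Traf1, an adaptor of TNF receptors, had 27.7 and 33.7 CPM in control, 51.5 and 50.5 CPM in pre-metastatic and 143 and 146 CPM in macro-metastatic libraries (log2FC 2.22, SE 0.22, adjusted p = 0.000752). Tnfsf9, the ligand of 4-1BB, a costimulatory receptor of T cells, had 1.63 and 3.49 CPM in control, 6.80 and 20.2 CPM in pre-metastatic and 41.4 and 43.2 CPM in macro-metastatic libraries, with 1 and 3 UMIs behind the control values (log2FC 3.93, SE 0.68, adjusted p = 0.00792). Cd86, the other ligand of Cd28, had 184 and 258 CPM in control, 329 and 348 CPM in pre-metastatic and 329.8 and 399.9 CPM in macro-metastatic libraries and missed the threshold (log2FC 0.72, SE 0.21, adjusted p = 0.0505; endothelial-low 0.25, adjusted p = 0.359). Exactly 1 of the 5 mature genes was held by 33 and 45 of the 119 and 186 members in macro-metastatic libraries, against 10 and 19 of the 92 and 140 members in control libraries. These counts were not adjusted for depth. Median depth was 10272 and 9972 UMIs in macro-metastatic members, against 6078 and 5550.5 UMIs in control members. The part of these members in the rise of maturation genes was not tested.

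Receptors and signals of growth factors rose in part. Of 19 genes tested, 9 rose and 1 fell in all members (9.42% and 4.80% of all genes), and in endothelial-low members 8 rose and 1 fell of 18 (9.18% and 3.51% of all genes). Csf2rb, the signalling chain shared by the receptors of GM-CSF, IL-3 and IL-5, had 97.7 and 116 CPM in control, 246 and 202 CPM in pre-metastatic and 716 and 743 CPM in macro-metastatic libraries. Its 6 values separate the groups without overlap, and the fold change was 2.76 (SE 0.20, adjusted p = 0.000328) in all and 2.33 (SE 0.18, adjusted p = 1.32e-05) in endothelial-low members. Csf2rb2, its near-identical mouse copy, had 24.4 and 29.0 CPM in control, 77.2 and 57.1 CPM in pre-metastatic and 315 and 217 CPM in macro-metastatic libraries (log2FC 3.30, SE 0.29, adjusted p = 0.000564), and reads of the pair may have been split between the copies. Csf2ra, the GM-CSF-binding chain, had 204 and 236 CPM in control, 319 and 314 CPM in pre-metastatic and 404 and 487 CPM in macro-metastatic libraries (log2FC 1.02, SE 0.18, adjusted p = 0.00908). Pim1, a kinase induced by cytokine receptors, had 448 and 539 CPM in control, 761 and 819.5 CPM in pre-metastatic and 2288 and 1829.7 CPM in macro-metastatic libraries (log2FC 2.06, SE 0.19, adjusted p = 0.000564), and Stat3 had 70.0 and 107 CPM in control, 149 and 140.0 CPM in pre-metastatic and 276 and 334 CPM in macro-metastatic libraries (log2FC 1.77, SE 0.23, adjusted p = 0.00249). Kit, the receptor of stem cell factor, fell in endothelial-low members, with 116 and 110.0 CPM in macro-metastatic libraries, against 208 and 188 CPM in control libraries (log2FC -0.80, SE 0.23, adjusted p = 0.0365).

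**Figure D3:**
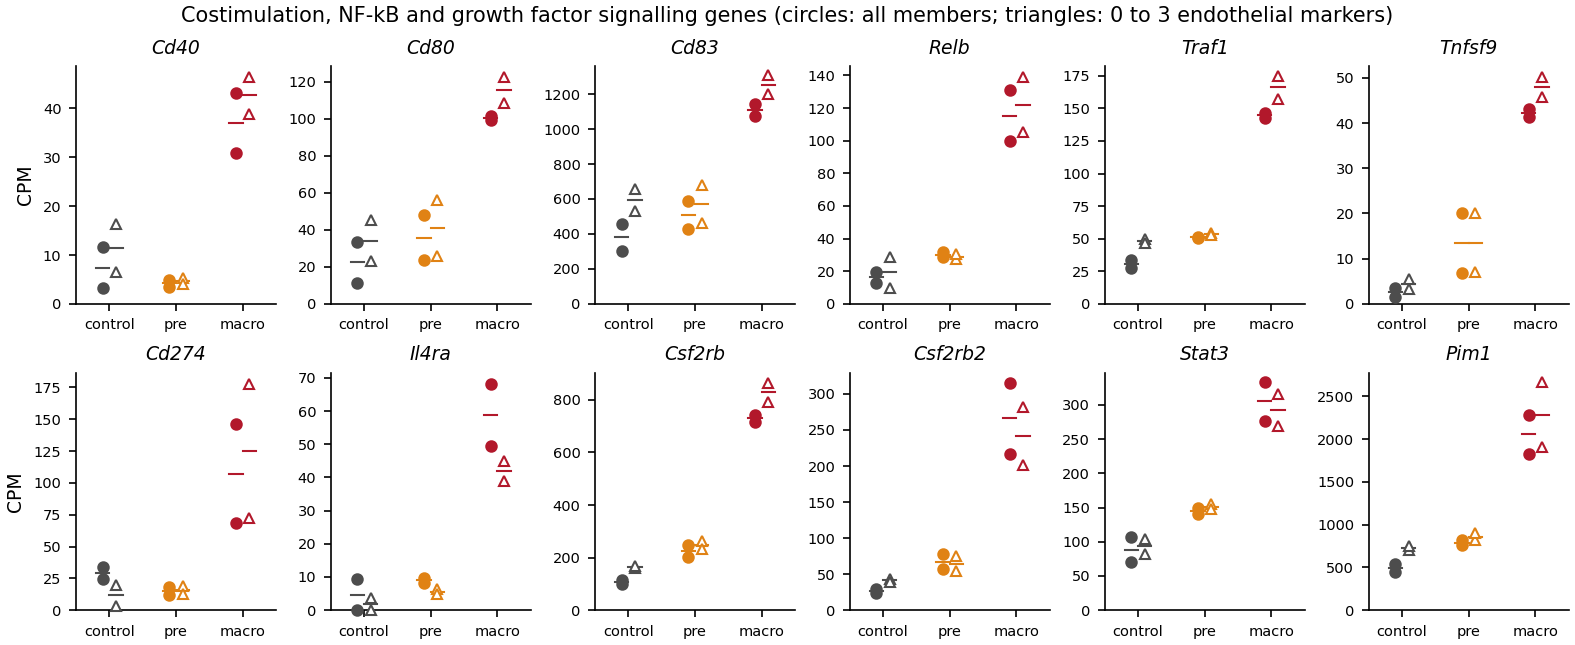
CPM of 12 activation, checkpoint and cytokine-receptor genes in each library and group (circles, all members; triangles, endothelial-low members; lines, group means; linear scale, each panel its own). For Cd40, Relb, Traf1, Csf2rb, Stat3 and Pim1 the macro-metastatic points lie above all pre-metastatic and control points.

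In the plot of activation genes both macro-metastatic libraries lie above the other 4 for each of the 12 genes. Checkpoint genes rose in part. Of 17 tested, 7 rose and 1 fell in all members (9.42% and 4.80% of all genes), and 6 of 14 rose and none fell in endothelial-low members (9.18% and 3.51% of all genes). Cd274, which encodes the inhibitory ligand PD-L1, had 3.30 and 19.9 CPM in control, 19.3 and 13 CPM in pre-metastatic and 178 and 72.4 CPM in macro-metastatic libraries in endothelial-low members, with macro-metastatic replicate 1 highest. Its fold change was 3.14 (SE 0.59, adjusted p = 0.00507) there and 1.88 (SE 0.41, adjusted p = 0.0187) in all members. Il4ra, the alpha chain of the IL-4 receptor, had 0 and 9.29 CPM in control, 8.26 and 9.66 CPM in pre-metastatic and 68.2 and 49.4 CPM in macro-metastatic libraries (log2FC 3.44, SE 0.61, adjusted p = 0.00841), and Pvr, the ligand of Tigit and Cd226, had 17.9 and 19.8 CPM in control, 38.4 and 26.3 CPM in pre-metastatic and 56.9 and 66.3 CPM in macro-metastatic libraries (log2FC 1.70, SE 0.31, adjusted p = 0.00938). Havcr2, which encodes TIM-3, rose by 0.65 (SE 0.18, adjusted p = 0.0475) in all members and had 0.14 (adjusted p = 0.624) in endothelial-low members.

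Antigen presentation genes rose in part. Of 12 MHC class II genes tested, 7 rose and none fell in all members, and 6 of 12 rose in endothelial-low members. Of all genes, 9.42% rose and 4.80% fell in all members, and 9.18% rose and 3.51% fell in endothelial-low members. The peptide editor subunit H2-DMa had 27.7 and 44.1 CPM in control, 49.6 and 47.8 CPM in pre-metastatic and 538 and 594 CPM in macro-metastatic libraries, and its log2FC was 3.94 (SE 0.24, adjusted p = 0.000142) in all members and 3.41 (SE 0.20, adjusted p = 6.18e-06) in endothelial-low members. Cd74, the invariant chain, had 2618 and 3533 CPM in control, 3683 and 4217 CPM in pre-metastatic and 6349.9 and 9653 CPM in macro-metastatic libraries (log2FC 1.38, SE 0.24, adjusted p = 0.00761), and the beta chain H2-Ab1 had 4483 and 4897 CPM in control, 6332 and 6275 CPM in pre-metastatic and 8278 and 9985 CPM in macro-metastatic libraries (log2FC 0.96, SE 0.17, adjusted p = 0.00785). The alpha chain H2-Aa, with 6995 and 8546 CPM in control, 9262 and 10111 CPM in pre-metastatic and 7598 and 10331 CPM in macro-metastatic libraries, overlapped between groups and did not pass (log2FC 0.21, SE 0.20, adjusted p = 0.511). Of 22 genes of MHC class I and cross-presentation, 4 rose and none fell in all members, beside 9.42% and 4.80% of all genes, at a median of 0.08. Psmb8, an immunoproteasome subunit, had 40.7 and 66.2 CPM in control, 52.0 and 62.3 CPM in pre-metastatic and 469.5 and 492 CPM in macro-metastatic libraries (log2FC 3.14, SE 0.25, adjusted p = 0.00036). Tap1, which carries peptide into the endoplasmic reticulum, rose in all members (log2FC 0.92, SE 0.23, adjusted p = 0.0319) and missed the threshold in endothelial-low members (log2FC 0.49, adjusted p = 0.15). The class I gene H2-K1 had 1339 and 1091 CPM in control, 1155 and 1255 CPM in pre-metastatic and 1259 and 1245 CPM in macro-metastatic libraries, level in the 3 groups (log2FC 0.04, SE 0.17, adjusted p = 0.885).

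Cytokines and chemokines differed between the sets of members. In all members 8 of 18 rose and none fell, beside 9.42% and 4.80% of all genes. In endothelial-low members 8 rose and 1, Il15, fell of 17, beside 9.18% and 3.51% of all genes. Cxcl2, a neutrophil attractant, had 92.9 and 36.0 CPM in control, 146 and 146 CPM in pre-metastatic and 1247 and 556 CPM in macro-metastatic libraries (log2FC 3.85, SE 0.47, adjusted p = 0.00195). Cxcl16, the ligand of Cxcr6 on T cells, had 143 and 168 CPM in control, 114 and 142 CPM in pre-metastatic and 296 and 293 CPM in macro-metastatic libraries (log2FC 0.91, SE 0.19, adjusted p = 0.0166). Ccl5 had 4.89 and 10.5 CPM in control, 12.6 and 8.34 CPM in pre-metastatic and 97.5 and 32.5 CPM in macro-metastatic libraries (log2FC 2.98, SE 0.64, adjusted p = 0.0176). Each was higher in both macro-metastatic libraries than in any other, with replicate 1 far above replicate 2 for Cxcl2 and Ccl5. Il12b, the IL-12 subunit through which cDC1 drive type 1 T cell responses, had 3.26 and 27.9 CPM in control, 3.40 and 17.6 CPM in pre-metastatic and 50.4 and 104 CPM in macro-metastatic libraries and did not pass against control (log2FC 2.20, SE 0.75, adjusted p = 0.0823). Cxcl9, which draws Cxcr3-positive T cells, missed the threshold in all members (log2FC 0.99, SE 0.34, adjusted p = 0.0823) and passed in endothelial-low members (log2FC 1.06, SE 0.31, adjusted p = 0.0418).

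Receptors of migration moved in both directions. Of 21 genes tested 8 rose and 1 fell in all members, beside 9.42% and 4.80% of all genes. In endothelial-low members 4 rose and 1 fell of 18, beside 9.18% and 3.51% of all genes. Ccr2, the receptor for monocyte attractants, was the gene that fell, with 799.7 and 666 CPM in control, 641 and 688 CPM in pre-metastatic and 382 and 333 CPM in macro-metastatic libraries in endothelial-low members and a fold change of -1.03 (SE 0.17, adjusted p = 0.00209) (-0.56 in all members, adjusted p = 0.047). Cxcr4, the receptor of Cxcl12, had 138 and 107 CPM in control, 138 and 167 CPM in pre-metastatic and 222 and 285 CPM in macro-metastatic libraries (log2FC 1.06, SE 0.22, adjusted p = 0.0164). Icam1, the ligand of LFA-1 on T cells, had 108 and 96.4 CPM in control, 92.8 and 171 CPM in pre-metastatic and 548 and 305 CPM in macro-metastatic libraries (log2FC 2.06, SE 0.36, adjusted p = 0.00782) and is also made by endothelium. In endothelial-low members its log2FC was 1.24 (SE 0.21, adjusted p = 0.00324).

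Calls of interferon-stimulated genes differed between the sets of members. Of 27 tested in all members none rose and 1, Oasl2, fell, beside 9.42% and 4.80% of all genes. In endothelial-low members 5 of 21 rose and 2 fell, beside 9.18% and 3.51% of all genes. Irf1, a transcription factor of the interferon response, was among those that rose, with 39.7 and 30.7 CPM in control, 23.6 and 46.7 CPM in pre-metastatic and 130.0 and 112 CPM in macro-metastatic libraries (log2FC 1.82, SE 0.35, adjusted p = 0.00594). Of 23 genes of pattern recognition and dead cell uptake 3 rose and 2 fell in all members and 2 of 20 rose and 2 fell in endothelial-low members, with the same shares of all genes beside them. Sting1, the adaptor of cytosolic DNA sensing, changed by 1.40 (SE 0.30, adjusted p = 0.0178). No cell cycle gene of 24 was called in all members, and Rrm2 and Mcm2 fell in endothelial-low members.

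Metabolic and stress genes rose in part. Of 18 genes of metal and oxidative stress 10 rose and none fell in all members, and 10 of 17 rose in endothelial-low members. Of all genes, 9.42% rose and 4.80% fell in all members, and 9.18% rose and 3.51% fell in endothelial-low members. Mt1, a zinc-binding metallothionein, had 40.7 and 62.7 CPM in control, 63.6 and 99.2 CPM in pre-metastatic and 682 and 1140.1 CPM in macro-metastatic libraries (log2FC 4.11, SE 0.36, adjusted p = 0.000549). Mt2 had 13 and 15.1 CPM in control, 30.6 and 49.2 CPM in pre-metastatic and 839.9 and 775 CPM in macro-metastatic libraries, and in endothelial-low members its 778 UMIs in macro-metastatic libraries stood against 0 in control libraries, at least 84.7-fold higher with a floor of 3 counts over the group. The copies are similar, so their split is uncertain. Of 21 genes of glycolysis and hypoxia 10 rose and none fell, beside the same shares of all genes. Gapdh had 78.2 and 115 CPM in control, 63.6 and 83.0 CPM in pre-metastatic and 884 and 825 CPM in macro-metastatic libraries (log2FC 3.13, SE 0.24, adjusted p = 0.000333), and Hilpda, a hypoxia-inducible coat protein of lipid droplets, had 29.3 and 18.6 CPM in control, 14.6 and 19.3 CPM in pre-metastatic and 180.3 and 212 CPM in macro-metastatic libraries (log2FC 3.07, SE 0.28, adjusted p = 0.000564). Of 29 genes of the respiratory chain 11 rose and none fell, again beside these shares of all genes. Sdhb, for example, had 16.3 and 19.8 CPM in control, 19.4 and 23.3 CPM in pre-metastatic and 69.9 and 77.0 CPM in macro-metastatic libraries. Its log2FC was 2.01 (SE 0.28, adjusted p = 0.00294).

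Sqstm1, the autophagy receptor p62, had 246 and 208 CPM in control, 203 and 240.1 CPM in pre-metastatic and 682 and 729 CPM in macro-metastatic libraries (log2FC 1.64, SE 0.18, adjusted p = 0.00122). Txnip, an inhibitor of glucose uptake and thioredoxin, went down, with 815 and 725 CPM in control, 368 and 429.7 CPM in pre-metastatic and 150.3 and 144 CPM in macro-metastatic libraries (log2FC -2.39, SE 0.18, adjusted p = 0.000333). Tsc22d3, the glucocorticoid-induced leucine zipper, also fell (log2FC -0.86, SE 0.23, adjusted p = 0.0405). Among the immediate-early genes 5 rose and 1 fell of 22, beside 9.42% and 4.80% of all genes in all members. Fosb had 116 and 210.3 CPM in control, 227 and 388 CPM in pre-metastatic and 1493 and 1263 CPM in macro-metastatic libraries (log2FC 3.06, SE 0.33, adjusted p = 0.00104). Fos had 2212 and 1646 CPM in control, 2097 and 2749 CPM in pre-metastatic and 1137 and 1024 CPM in macro-metastatic libraries (log2FC -0.84, SE 0.21, adjusted p = 0.0292). The paralogues thus moved in opposite directions. Of 21 cholesterol and lipid genes 2 rose and 2 fell in all members, beside 9.42% and 4.80% of all genes, and 4 rose and 1 fell in endothelial-low members, beside 9.18% and 3.51%. Of 10 glucocorticoid-responsive genes 2 rose and 2 fell in all members, and 2 rose and 3 fell in endothelial-low members, beside the same shares of all genes.

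**Figure D4:**
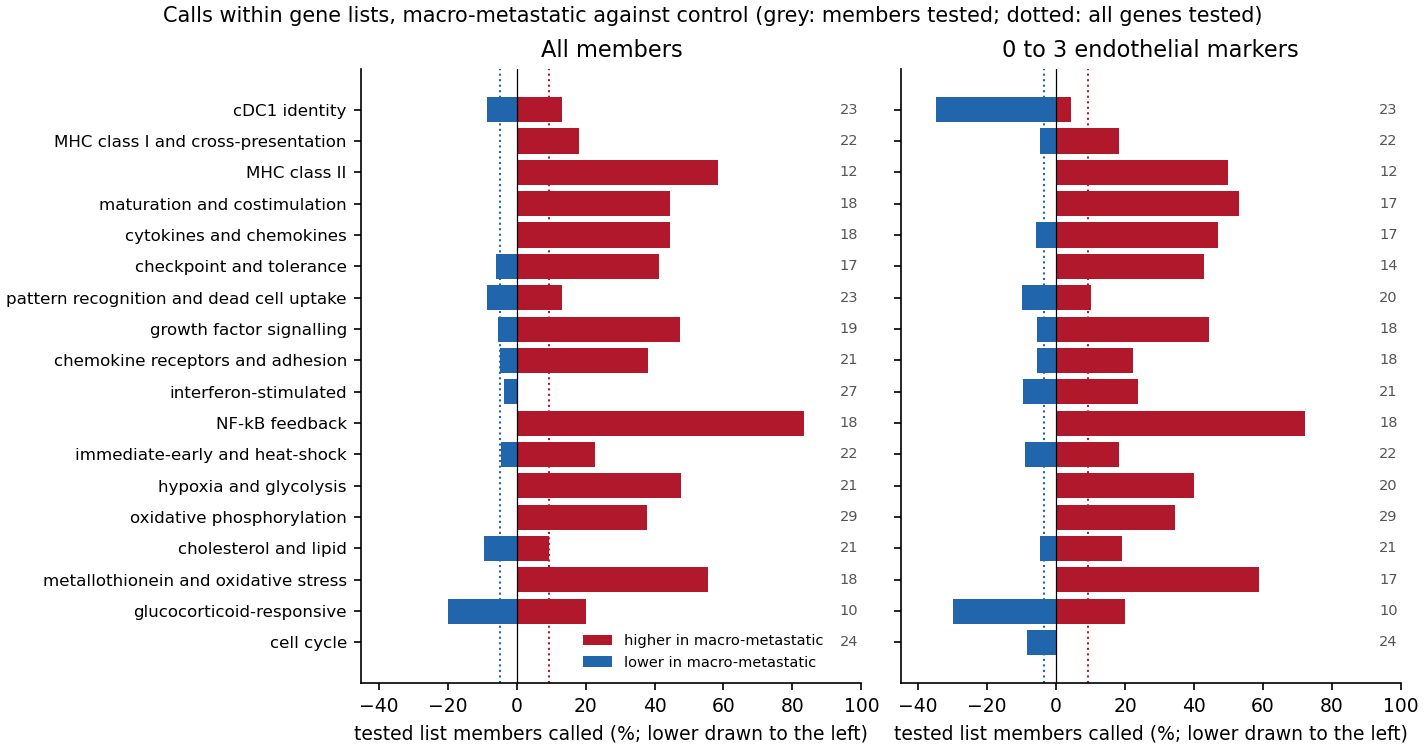
Percentage of tested members of each gene list that were called higher or lower in macro-metastatic than in control livers, for all members and for endothelial-low members. Dotted lines give the share of all tested genes that was called; the NF-kB feedback list stands furthest above it, with 15 of 18 genes in all members.

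The plot of called shares by list places maturation, MHC class II, metallothionein and glycolysis genes above the background of all genes, and interferon and cell cycle genes at or near 0 in all members. The largest rises among well-measured genes, by the rule given under processing, were Ppp1ca, Selp, Prelid1, H2-DMa, Emp3, Snrpd2, Cnn2 and Vav1. Ppp1ca, a catalytic subunit of protein phosphatase 1, had 6.52 and 10.5 CPM in control, 25.3 and 13.6 CPM in pre-metastatic and 335 and 208 CPM in macro-metastatic libraries (log2FC 4.94, SE 0.44, adjusted p = 0.000564). Selp, the endothelial P-selectin, rested on macro-metastatic replicate 1 with 4.89 and 5.81 CPM in control, 5.34 and 39.1 CPM in pre-metastatic and 290.0 and 35.0 CPM in macro-metastatic libraries, and did not pass in endothelial-low members (log2FC 2.30, SE 1.33, adjusted p = 0.297). Hic1, a transcriptional repressor, had 4.89 and 5.81 CPM in control, 2.91 and 4.39 CPM in pre-metastatic and 72.3 and 83.9 CPM in macro-metastatic libraries (log2FC 3.83, SE 0.36, adjusted p = 0.00061) and was, with Rsad2 and Plet1, among the 3 largest rises in endothelial-low members. Rsad2, an antiviral interferon-induced protein, rested there on macro-metastatic replicate 1, with 193 and 20.5 CPM in macro-metastatic libraries, against 0 and 1.81 CPM in control libraries.

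The largest falls in all members, Ccn2, Bmp6, Pck1, Prickle1, Tinagl1, Sox18, Cav2 and Gpr155, included genes of endothelium such as Sox18 and Cav2. Gpr155 had a log2FC of -2.73 in all members (adjusted p = 0.00387) and -0.15 in endothelial-low members (adjusted p = 0.924). In endothelial-low members the largest falls were Nedd4, Xlr, Txnip, Kctd14, Slc46a3, Casp2, Ifi209 and Setd1b. Nedd4, a ubiquitin ligase, had 145 and 114 CPM in control, 43.5 and 69.1 CPM in pre-metastatic and 19.4 and 27.3 CPM in macro-metastatic libraries (log2FC -2.41, SE 0.31, adjusted p = 0.000504). Xlr, an X-linked lymphocyte-regulated gene, had 106 and 110.2 CPM in control, 41.3 and 76.8 CPM in pre-metastatic and 16.4 and 28.0 CPM in macro-metastatic libraries (log2FC -2.23, SE 0.36, adjusted p = 0.00216), beside 0.15 in B cells.

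Transcripts of other cells moved with these groups. Over 14 neutrophil genes the summed level was 97.1 and 62.0 CPM in control, 759 and 332 CPM in pre-metastatic and 983 and 637 CPM in macro-metastatic members, and Lcn2, Ngp, Camp, Ltf and G0s2 were at 0 in control members. In endothelial-low members the neutrophil sum was 42.5 and 46.1 CPM in control, 599 and 241 CPM in pre-metastatic and 977 and 532 CPM in macro-metastatic libraries. Of the 10 neutrophil genes tested, 4 rose and none fell in macro-metastatic livers, beside 9.42% and 4.80% of all genes in all members. Over 15 Kupffer and macrophage genes it was 606 and 239 CPM in control, 373 and 401 CPM in pre-metastatic and 1054 and 778 CPM in macro-metastatic members, with Clec4f and Marco at 0 in control members. In endothelial-low members the Kupffer and macrophage sum was 229 and 168 CPM in control, 172.5 and 301 CPM in pre-metastatic and 1174 and 780 CPM in macro-metastatic libraries. Over 20 hepatocyte genes it was 998 and 791 CPM in control, 1828 and 1396 CPM in pre-metastatic and 242 and 525 CPM in macro-metastatic members. In endothelial-low members the hepatocyte sum was 1137 and 466 CPM in control, 479 and 647 CPM in pre-metastatic and 240.0 and 360.4 CPM in macro-metastatic libraries, so pre-metastatic and control libraries overlapped there. Over 12 acute phase genes it was 16.7 and 18.2 CPM in control, 1903 and 469 CPM in pre-metastatic and 231 and 333 CPM in macro-metastatic members, with Saa2, Saa3, Orm1, Orm2 and Orm3 at 0 in control members. In endothelial-low members the acute phase sum was 13.1 and 7.37 CPM in control, 198 and 144 CPM in pre-metastatic and 92.2 and 284 CPM in macro-metastatic libraries. Their part in the results was not tested.

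B cells of the same libraries were set beside cDC1. The difference between the change in cDC1 and the change in B cells was tested for 10343 genes, and 125 (1.21%) changed more upwards and 158 (1.53%) more downwards in cDC1 between macro-metastatic and control livers. With endothelial-low members it was 106 (1.04%) each way of 10146. For several of the genes above no difference was called. Nfkbia had a log2FC of 2.18 in cDC1 and 1.91 in B cells (adjusted p of the difference = 0.576). H2-DMa had 3.94 in cDC1 and 3.19 in B cells (0.197), Csf2rb had 2.76 and 2.43 (0.713), and Mt1 had 4.11 and 4.65 (0.364), the value in cDC1 given before that in B cells. The number of genes called was 152 without macro-metastatic replicate 2, 107 without control replicate 1 and 176 without control replicate 2, against 283 with all libraries.

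Some maturation and NF-kB genes rose more in cDC1 than in B cells. Of 20 maturation genes tested, 4 changed more upwards in cDC1 and none more downwards. Relb changed by 2.77 in cDC1 and by 0.55 in B cells, a difference of 2.22 (SE 0.36, adjusted p = 0.00225). Cd40 changed by 2.21 in cDC1 and -0.15 in B cells, a difference of 2.37 (SE 0.48, adjusted p = 0.00977). Cd83 differed by 1.29 (SE 0.22, adjusted p = 0.00349), Birc3 by 1.28 (SE 0.24, adjusted p = 0.00569) and Tnfaip3, the feedback deubiquitinase, by 1.78 (SE 0.31, adjusted p = 0.00305). All 5 differences also passed with endothelial-low members. Of 18 NF-kB genes 3 changed more upwards, Relb, Birc3 and Tnfaip3, and 1, Nlrp3, more downwards. Relb and Birc3 are counted in both lists.

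Receptors of migration went both ways. Cxcr4 rose by 1.06 in cDC1 and had -0.44 in B cells, a difference of 1.49 (SE 0.23, adjusted p = 0.00163). Ccr2 ran the other way, with -0.56 in cDC1 and 2.24 in B cells (difference -2.82, SE 0.43, adjusted p = 0.00163). Of 19 cytokine and chemokine genes none changed more upwards in cDC1 and 4, Il1b, Cxcl2, Ccl3 and Ccl4, more downwards, of which Il1b and Ccl4 also passed in endothelial-low members. Il1b changed by 1.60 in cDC1 and 3.35 in B cells (difference -1.70, SE 0.28, adjusted p = 0.00238), and Ccl4 by 1.36 and 3.71 (difference -2.50, SE 0.43, adjusted p = 0.0033). Nlrp3, the inflammasome sensor, changed by 1.95 and 3.64 (difference -1.73, SE 0.34, adjusted p = 0.00828).

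**Figure D5:**
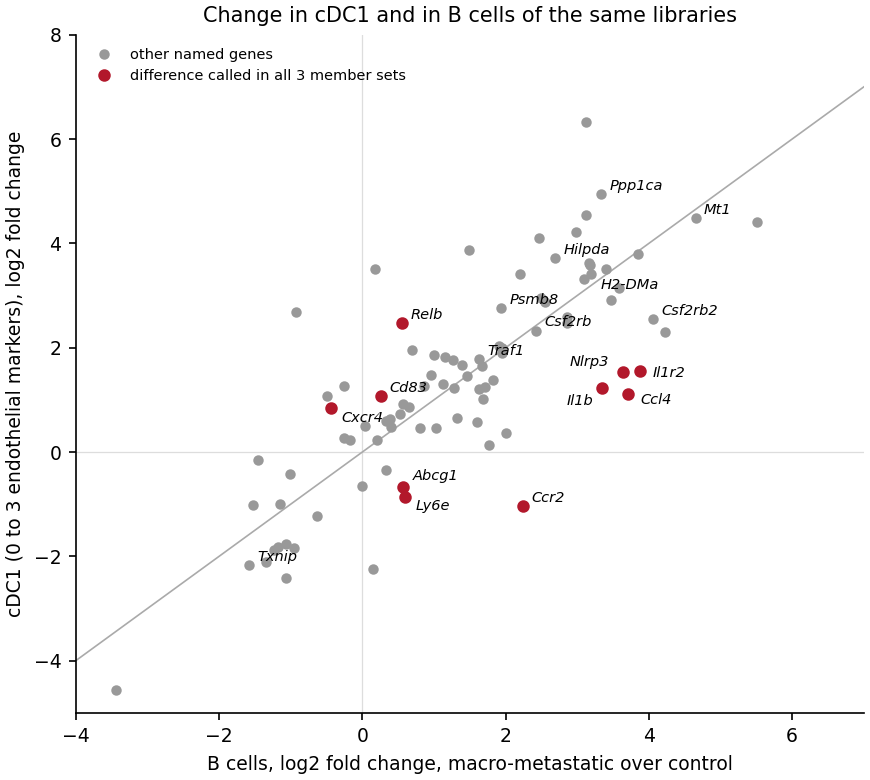
Log2 fold change of macro-metastatic over control livers in B cells (horizontal) and in endothelial-low cDC1 (vertical) for 91 named genes; the diagonal marks equal change, and 1 gene, Mt2, lies outside the axes. Red points are genes whose change differs between the classes in all 3 selections of members. Relb, Cd83 and Cxcr4 lie above the diagonal, and Ccr2, Il1b, Ccl4 and Nlrp3 below it.

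The plot of cDC1 against B cell changes marks 10 genes in red. Against cDC2, of which the control libraries held only 14 and 31, no gene of 9193 differed in either comparison with control livers over all members. At an unadjusted p under 0.05 there were 601 genes for macro-metastatic and 559 for pre-metastatic livers, and the smallest adjusted p were 0.0555 and 0.150. In endothelial-low members 56 genes lay above cDC2 and 9 below in macro-metastatic against control livers, 0.626% and 0.101% of 8946. Tnfaip3 (difference 1.48, SE 0.23, adjusted p = 0.00273), Nfkbia (difference 0.88, SE 0.19, adjusted p = 0.0262) and Zfp36, which destabilises cytokine mRNA (difference 1.04, SE 0.15, adjusted p = 0.00128), changed more upwards in cDC1. Naaa (difference -1.31, SE 0.27, adjusted p = 0.0196), Ly6e (difference -1.84, SE 0.32, adjusted p = 0.00562) and Il1r2, the IL-1 decoy receptor (difference -2.34, SE 0.39, adjusted p = 0.00429), changed more downwards.

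The 4 largest differences above cDC2 were Sh3bp5, Cd93, Lpl and Igfbp7, and the 4 largest below were Zfp366, Cdk6, Ly6e and Tbc1d4. Sh3bp5 and Cd93 are also expressed by endothelium, and with all members their differences were not called. In endothelial-low members Cd93 had 22.5 and 32.1 CPM in macro-metastatic libraries, against 3.30 and 1.81 CPM in control libraries. Lpl rested on macro-metastatic replicate 1, with 272 and 13.7 CPM in macro-metastatic libraries, against 0 and 14.4 CPM in control libraries.

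Few genes of cDC1 passed edgeR's threshold between pre-metastatic and control livers, and several of those called are transcripts of hepatocytes or neutrophils. Of 9622 genes 6 rose (0.0624%) and 4 fell (0.0416%) in all members, and of 8623 genes 5 rose (0.0580%) and 2 fell (0.0232%) in endothelial-low members. With at least 3 positive markers 0 of 8386 genes rose and 1 fell (0.0119%). In edgeR's test 1656 of 9622 genes in all and 827 of 8623 in endothelial-low members had an unadjusted p under 0.05. DESeq2 called 147 in all and 23 in endothelial-low members, so the number of calls depended on the test. The count for all members was 149 and 143 without macro-metastatic replicates 1 and 2, 136 without pre-metastatic replicate 2, and 0 without either control replicate. In endothelial-low members it was 48 and 39 without macro-metastatic replicates 1 and 2, 2 and 19 without pre-metastatic replicates 1 and 2, and 0 without either control replicate. No gene was called in all 3 selections of members.

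The functional lists gave no call in pre-metastatic against control livers except 2 cytokines in all members. Ccl4, a chemokine, had 724 and 905 CPM in pre-metastatic libraries, against 280.2 and 314 CPM in control libraries (log2FC 1.45, SE 0.20, adjusted p = 0.0431), but 1.11 (SE 0.21, adjusted p = 0.0791) in endothelial-low members. Il6 had 67 and 92 UMIs in pre-metastatic members, against 0 and 1 in control members (adjusted p = 0.0402), and was not called in endothelial-low members (adjusted p = 0.537). Il1b had 1446 and 1119 CPM in pre-metastatic libraries, against 257 and 541 CPM in control libraries without overlap of the groups, and missed the threshold in all (log2FC 1.67, SE 0.31, adjusted p = 0.0695) and in endothelial-low members (log2FC 1.23, SE 0.22, adjusted p = 0.0708). The identity genes gave no call among 23 in either set, and Irf8 had a log2FC of -0.05 (SE 0.16, adjusted p = 0.941) in endothelial-low members.

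Septin3, Ly6e and Cd52 were called in endothelial-low members. Septin3, a cytoskeletal GTPase, had 1171 and 939 CPM in pre-metastatic libraries, against 397 and 409.9 CPM in control libraries (log2FC 1.39, SE 0.20, adjusted p = 0.0362), and in all members 1.84 (adjusted p = 0.061). Ly6e, a small surface protein, had 157 and 132 CPM in pre-metastatic libraries, against 387 and 455 CPM in control libraries (log2FC -1.55, SE 0.20, adjusted p = 0.0209), and passed with at least 3 markers too (log2FC -1.52, adjusted p = 0.0356). Cd52, a leukocyte glycoprotein, had 365 and 523 CPM in pre-metastatic libraries, against 939 and 1389 CPM in control libraries (log2FC -1.40, SE 0.21, adjusted p = 0.0362). Macro-metastatic libraries had 1996 and 2214 CPM of Cd52, above both other groups. The change of Ly6e differed from that in B cells by -1.16 (SE 0.20, adjusted p = 0.00969), where 0.445% of 10343 genes changed more upwards and 0.754% more downwards in cDC1.

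The remaining calls in endothelial-low members were Saa1, Orm1, S100a9 and Wfdc17. In all members they were Saa1, S100a9, Fgb, Fgl1, Ccnd2, Prickle1, Hlf and Zfp503. Hlf, Zfp503 and Wfdc17 fell outside the naming rule and are listed here after their values were seen. Saa1, an acute phase protein of hepatocytes, had 830.2 and 166 CPM in pre-metastatic libraries, against 0 and 1.16 CPM in control libraries, and pre-metastatic replicate 1 was far above replicate 2. S100a9, a neutrophil calprotectin subunit, had 145 and 76.4 CPM in pre-metastatic libraries, against 0 and 4.65 CPM in control libraries (log2FC 5.32, SE 0.69, adjusted p = 0.0402), and a log2FC of 3.22 in B cells. Fgb, a fibrinogen chain, had 224 and 137 CPM in pre-metastatic libraries, against 13 and 19.8 CPM in control libraries in all members, and 1.44 (adjusted p = 0.449) in endothelial-low members. Ccnd2, a cyclin, had 99.6 and 133 CPM in pre-metastatic libraries, against 461 and 383 CPM in control libraries in all members (log2FC -1.86, SE 0.26, adjusted p = 0.0431), and missed the threshold in endothelial-low members (log2FC -1.71, SE 0.35, adjusted p = 0.11).

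Macro-metastatic and pre-metastatic cDC1 differed in some genes of NF-kB, maturation and identity. The comparison shares the macro-metastatic libraries with that against control livers. In all members 744 genes rose (7.73%) and 284 fell (2.95%) of 9622, and in endothelial-low members 1069 (12.4%) and 538 (6.24%) of 8623. The number called was 644 and 633 without macro-metastatic replicates 1 and 2, and 268 and 527 without pre-metastatic replicates 1 and 2, against 1028. In endothelial-low members it was 673 and 786 without pre-metastatic replicates 1 and 2, against 1607. With at least 3 positive markers 9.21% of genes rose and 3.76% fell. Leaving the rule genes aside, 599 genes rose and 178 fell in all 3 selections.

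Of the 18 NF-kB genes 13 rose and none fell in all members, and 16 rose in endothelial-low members. Of 18 maturation genes 7 rose and none fell in all members, and in endothelial-low members 10 rose and 1, Il15ra, fell of 17. Of all genes, 7.73% rose and 2.95% fell in all members, and 12.4% rose and 6.24% fell in endothelial-low members. Cd40 had 30.9 and 43.2 CPM in macro-metastatic libraries, against 4.86 and 3.51 CPM in pre-metastatic libraries (log2FC 3.14, SE 0.44, adjusted p = 0.00325). Relb had a log2FC of 1.93 (SE 0.24, adjusted p = 0.00191) and Csf2rb of 1.70 (SE 0.18, adjusted p = 0.00101). Cd274 had 178 and 72.4 CPM in macro-metastatic libraries, against 19.3 and 13 CPM in pre-metastatic libraries in endothelial-low members (log2FC 2.91, SE 0.42, adjusted p = 0.000635). Il12b, which missed the threshold against control, passed here with 50.4 and 104 CPM in macro-metastatic libraries, against 3.40 and 17.6 CPM in pre-metastatic libraries (log2FC 2.86, SE 0.68, adjusted p = 0.0301) and in endothelial-low members (log2FC 2.84, SE 0.55, adjusted p = 0.0039), and so did Cxcl9 (log2FC 1.91, SE 0.33, adjusted p = 0.00824). Cxcl9 and the IL-12 subunit were thus higher in macro-metastatic than in pre-metastatic cDC1.

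Of 23 identity genes none rose and 4 fell in all members, beside 7.73% and 2.95% of all genes. In endothelial-low members 1 rose and 8 fell, beside 12.4% and 6.24% of all genes. Bcl6 had 115 and 120.2 CPM in macro-metastatic libraries, against 321 and 238 CPM in pre-metastatic libraries (log2FC -1.25, SE 0.24, adjusted p = 0.0131). Irf8 had 815 and 992 CPM in macro-metastatic libraries, against 1780.4 and 1308 CPM in pre-metastatic libraries (log2FC -0.77, SE 0.20, adjusted p = 0.0405), and Gcsam had 84.5 and 112 CPM in macro-metastatic libraries, against 245 and 177 CPM in pre-metastatic libraries (log2FC -1.10, SE 0.25, adjusted p = 0.0251). All 3 were lower in each macro-metastatic than in each pre-metastatic library. These genes passed with all members here, where the share of endothelial barcodes was 10.1% to 21.8% in the 4 libraries. Naaa passed in endothelial-low members (log2FC -0.75, SE 0.15, adjusted p = 0.0047). Cbfa2t3, a transcriptional corepressor of blood cell lineages, had 275 and 238 CPM in macro-metastatic libraries, against 540.2 and 406 CPM in pre-metastatic libraries (log2FC -0.88, SE 0.20, adjusted p = 0.0255), Ccr2 changed by -0.95 (SE 0.16, adjusted p = 0.00649) and Cxcr3, the receptor of Cxcl9, by -1.47 (SE 0.29, adjusted p = 0.0128).

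Among the largest changes, Serpina3g, a protease inhibitor of a mouse family of near-identical copies, had 321 and 202 CPM in macro-metastatic libraries, against 9.72 and 21.5 CPM in pre-metastatic libraries (log2FC 4.04, SE 0.37, adjusted p = 0.000557), and Crip1 changed by 3.78 (SE 0.27, adjusted p = 0.000128). The largest falls in all members, Apcs, Pck1, Saa1, Tat, Orm1, Saa2, Fgb and Rgn, were hepatocyte transcripts. In endothelial-low members Trp53inp1, a p53-inducible gene, had 12.3 and 21.9 CPM in macro-metastatic libraries, against 84.2 and 69.1 CPM in pre-metastatic libraries (log2FC -2.11, SE 0.29, adjusted p = 0.000485), beside 19.8 and 34.3 CPM in control libraries. Its pre-metastatic libraries stood above those of both other groups.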

How the data were processed

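The authors deposited, for each of 6 libraries, a matrix of UMI counts per gene and cell barcode (71908 barcodes, 31253 features). Per the submitters' processing notes, CASAVA 1.8, UMI-tools and build mm10 were used. Their aligner was not given in the sources used here. Kept barcodes had 300 genes or more and less than 25% mitochondrial UMIs, and none was removed as a doublet. Scrublet scores from scanpy 1.11.5 gave an alternative without the highest 6%.

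UMI counts of members were summed per library, and CPM are relative to that sum after TMM scaling. The sums were tested with edgeR 4.0.16 (R 4.3.3; filterByExpr, TMM, quasi-likelihood test, Benjamini-Hochberg adjustment over all genes tested, threshold 0.05) on all 6 libraries, with 3 residual degrees of freedom. DESeq2 1.42.0 was an alternative. Differences from cDC2 and B cells were interaction terms with the library as a block. The endothelial-low selection was applied to cDC1 only, and cDC2 and B cells entered unfiltered. Abundance was tested over 13 marker-defined classes with kept barcodes as the total. Leave-one-library-out fits keep the other libraries and assume that a lone library varies like the others.

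Members and gene lists were chosen with earlier results of these data known, and the endothelial-low selection after seeing the data. Genes are named if they belong to the rule or the identity list, are among the 8 largest called rises or falls in a comparison (mean log2 CPM of at least 5, groups not overlapping, at least 10% of the highest CPM of another class, ribosomal, mitochondrial and predicted genes left out), the 4 smallest p of a list, or the 4 largest differences from cDC2. List members without a feature (8) were not analysed here, and some genes that this rule names are not reported here. Other list members named in the text were chosen after their values were seen. Tests were checked on simulated counts. The smallest p of an exact permutation test with 2 libraries a group is 0.333.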

Additional observations from a re-analysis of the deposited data

Results flagged for a closer look

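The change between macro-metastatic and control livers differed between cDC1 and B cells of the same libraries, by the interaction test with an adjusted p under 0.05 in all members, in endothelial-low members and in members with at least 3 markers, for 10 named genes. Larger in cDC1 were the changes of Relb, by 2.22 on the log2 scale (adjusted p = 0.00225), Cxcr4, by 1.49 (0.00163), and Cd83, by 1.29 (0.00349). Below those in B cells were Ccr2, with a difference of -2.82 (0.00163), Ccl4 of -2.50 (0.0033), Abcg1 of -1.94 (0.000322), Il1r2 of -1.87 (0.00924), Nlrp3 of -1.73 (0.00828), Il1b of -1.70 (0.00238) and Ly6e of -1.28 (0.00187).

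Abcg1, a cholesterol exporter, had a log2FC of -1.35 in cDC1 and 0.56 in B cells, and Il1r2 had 2.03 in cDC1 and 3.88 in B cells. Ccr2, Ccl4, Il1b, Il1r2 and Nlrp3 are genes of myeloid cells, and neutrophil genes summed over cDC1 members were also higher in macro-metastatic than in control libraries. Their part in these differences was not tested. Between pre-metastatic and control livers the change of Ly6e was lower in cDC1 than in B cells by a difference of -1.16 (adjusted p = 0.00969), with a log2FC of -1.02 in cDC1 and 0.19 in B cells.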

How the results depend on the processing

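Of the 150 calls of named genes over the 3 comparisons that could be refitted without control replicate 1, 69 kept and 81 lost the threshold, and without control replicate 2 it was 86 and 64. Of those that could be tested in endothelial-low members 112 kept it, 24 lost it and 3 changed sign, and 1 gene that was not called in all members, Cd93, changed sign as well. Between macro-metastatic and control livers Cd93 had 3.50, Dnase1l3 0.32, Fcgr2b 0.50 and Sh3bp5 2.69 in endothelial-low members, on the log2 scale, all negative in all members. There were 92 and 140 members in the 2 control libraries and 119 and 186 in the macro-metastatic ones, and the part of these numbers in the lost calls was not tested. The causes of the changes below were not tested.

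The abundance difference of macro-metastatic over control livers, at -0.00, lay on either side of 0. It was 0.27 with TMM factors, 0.50 after thinning each barcode to 1000 UMIs, 0.52 with at least 3 markers and 0.051 without high doublet scores. It was -0.23 to 0.25 without 1 library, -0.32 with immune cells as the total and -0.24 with dendritic cells as the total. In endothelial-low members it was 0.58, 0.24 with immune cells as the total and 0.24 to 1.04 without 1 library. Pre-metastatic over control abundance passed the threshold with DESeq2 (1.43), TMM factors (1.53), thinning (2.14), at least 3 markers (2.19) and endothelial-low members (2.00; 1.74 of immune cells). Over all members it missed the threshold as a share of immune cells (1.20) and without high doublet scores (1.40). It ranged over 1.22 to 1.69 without 1 library (1.66 to 2.46 in endothelial-low members), and was -0.16 of dendritic cells. Macro-metastatic over pre-metastatic abundance passed with DESeq2 (-1.44), as a share of immune cells (-1.52; endothelial-low -1.50) and after thinning (-1.64). It missed the threshold with TMM factors (-1.26), at least 3 markers (-1.67), without high doublet scores (-1.35) and in endothelial-low members (-1.42). It ranged over -1.67 to -1.24 without 1 library, and was -0.079 of dendritic cells.

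Genes called between macro-metastatic and control livers (1368) were 2213 without a filter, 772 with at least 3 markers, 425 after thinning, 663 by DESeq2 in endothelial-low members, and 210 to 1261 without 1 library (325 to 970 in endothelial-low members). Between pre-metastatic and control livers (10) they were 147 by DESeq2 (23 in endothelial-low members), 944 without a filter, 0 with at least 10 UMIs in every library, 1 with at least 3 markers, 132 without high doublet scores, 200 after thinning, and 0 to 149 without 1 library (0 to 48 in endothelial-low members). Between macro-metastatic and pre-metastatic livers (1028) they were 647 by DESeq2, 1780 without a filter, 567 with at least 10 UMIs, 242 after thinning, 268 to 774 without 1 library, 1607 in endothelial-low members (673 to 1584 without 1 library) and 1804 there without TMM, of which 904 rose and 900 fell.

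Genes whose change differed from cDC2 between macro-metastatic and control livers (0) were 1 without TMM, 1 with at least 10 UMIs, 10 with at least 3 markers, 65 in endothelial-low members and 0 to 30 without 1 library. Between pre-metastatic and control livers (0) they were 1 with at least 10 UMIs, 3 with at least 3 markers, 7 in endothelial-low members and 0 to 12 without 1 library. Against B cells they were 120 with at least 3 markers (283) and 107 to 290 without 1 library for macro-metastatic livers. For pre-metastatic livers (124) they were 3 with at least 3 markers, 32 in endothelial-low members and 23 to 216 without 1 library.

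Over the genes of all members, same-numbered libraries deviated from their group means with correlations of 0.14, -0.07 and -0.18. The cDC1 share of kept barcodes, by contrast, was higher in replicate 2 than in replicate 1 of every group. This held for all members and for endothelial-low members. Whether same-numbered libraries have more than a number in common was not tested. Under a block on the replicate number the abundance difference was 1.45 for pre-metastatic over control and -1.45 for macro-metastatic over pre-metastatic livers, past the threshold in both cases. In endothelial-low members the block gave 0.60, 2.06 and -1.46 for macro-metastatic over control, pre-metastatic over control and macro-metastatic over pre-metastatic abundance. The block gave 1182 called genes between macro-metastatic and control, 12 between pre-metastatic and control, and 849 between macro-metastatic and pre-metastatic livers (1685 in endothelial-low members).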
